A study of Mus musculus with 12 samples.

Results

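Cytosolic ribosomal protein genes were followed on 12 Illumina expression arrays of W9.5, an embryonic stem cell line of the mouse. A probe was taken as a member if its platform symbol was an Rpl or Rps symbol of the cytosolic series, Rplp0 to Rplp2, or Rpsa, whatever its level. The rule found 68 of the 24613 probes, for 51 of the 15967 genes on the array, and mitochondrial ribosomal proteins (Mrpl and Mrps symbols) were not included. Of these, 45 probes (34 genes) belong to the large and 23 probes (17 genes) to the small ribosomal subunit.

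The arrays fall into day 0, day 4, day 8 and day 15 of a stepwise differentiation, with 3 arrays per day. Per the labels, W9.5 cells were exposed in sequence to activin A, retinoic acid, and retinoic acid together with FGF, to obtain pancreatic progenitors. The labels give this one treatment for all 12 arrays, day 0 included, do not date the addition or removal of any agent, and call the cells embryonic stem cells on all 4 days. They name no genotype other than the line, and do not say whether the replicates were separate cultures, so p-values measure only the spread between these arrays.

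The cytosolic ribosome joins a small subunit, which reads the mRNA, to a large subunit, which forms the peptide bond. Each ribosomal protein is needed in nearly equal number, and most of their mRNAs begin at a C followed by a run of pyrimidines (C or T in DNA letters), the 5′ terminal oligopyrimidine or TOP start, through which the mTOR kinase and the RNA-binding protein LARP1 adjust their translation with growth. Embryonic stem cells divide fast and make many ribosomes, and some ribosomal proteins have paralogs used in particular tissues.

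The starts of 8 member genes are shown because they carry this feature to different degrees and because these genes recur in the results. Each line has 60 bases of RefSeq sequence (GRCm38.p6), read 5′ to 3′ on the gene's strand, from 40 bases before the annotated transcript start. Capitals mark the first transcribed base and the C and T bases that directly follow it.
Rpl38: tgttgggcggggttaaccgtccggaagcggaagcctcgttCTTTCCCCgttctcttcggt
Rpl14: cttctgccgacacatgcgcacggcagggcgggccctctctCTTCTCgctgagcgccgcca
Rps15a: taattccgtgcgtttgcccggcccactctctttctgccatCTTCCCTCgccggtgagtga
Rps18: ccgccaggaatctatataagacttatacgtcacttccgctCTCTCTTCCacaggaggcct
Rps27: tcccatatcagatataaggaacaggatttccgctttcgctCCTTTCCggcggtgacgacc
Rps27l: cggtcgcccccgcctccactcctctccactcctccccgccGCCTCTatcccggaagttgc
Rpl39: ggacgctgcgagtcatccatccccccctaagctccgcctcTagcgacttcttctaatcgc
Rpl39l: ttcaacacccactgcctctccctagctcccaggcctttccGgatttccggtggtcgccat

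On the plus strand lie Rpl38 (chr11:114668540-114668599), Rpl14 (chr9:120571477-120571536), Rps27l (chr9:66946046-66946105, the upstream one of its listed starts) and Rpl39l (chr16:10170188-10170247). On the minus strand lie Rps15a (chr7:118116128-118116187), Rps18 (chr17:33955646-33955705), Rps27 (chr3:90213629-90213688) and Rpl39 (chrX:37085203-37085262). Read on the transcribed strand at the start position only, a C followed by at least 4 bases that are each C or T was found in 9 of the 41 member genes with a promoter entry (22%) and in 3.01% of the 27025 genes of that table. The first 5 genes above have it, and Rps27l, Rpl39 and Rpl39l do not at these annotated starts. A match is a description of these letters, and annotated starts can be some bases off.

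The arrays were comparable in depth: between 11253 and 12554 probes were detected on each (detection p-value under 0.05), and the median scanner intensity lay between 71.2 and 86.3. Levels below are the authors' log2 values, and tests are limma's over 13421 probes detected on at least 3 arrays, with Benjamini-Hochberg adjustment over all of them. A probe is called changed at an adjusted p-value under 0.05, and errors of a change are the standard error of the fit with n = 3 arrays per day. Of the 68 member probes, 63 (49 genes) were tested. The 5 left out were the only probe of Rpl17, detected on 0 arrays, both probes of Rpsa, detected on 0 and 1 arrays, and 2 of the 3 probes of Rpl37, detected on 0 and 2 arrays. Rps6, Rps25 and Rps27a were not analysed here. Many ribosomal protein genes have near-identical processed pseudogenes and probe positions were not used here, so signal from such copies cannot be told apart from the gene's own. Levels are relative to each array, and in a bulk sample fewer cells of a type and less RNA per cell cannot be told apart.

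Ribosomal protein mRNAs fell together between day 4 and day 8. With the authors' scaling most stood highest on day 4, while with median scaling the median change from day 0 to day 4 was -0.03. In limma's F-test over the 4 days, 51 of 63 member probes changed (81.0%), where 72.4% of all tested probes did. The day of the highest mean was day 4 for 36 of the 51, day 0 for 10, day 15 for 5 and day 8 for 0. Among all probes that changed, the shares were 17.4% for day 4, 36.8% for day 0, 27.1% for day 15 and 18.8% for day 8.

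With each probe centred on its own mean over the 12 arrays, the median over the 63 members was between 0.08 and 0.13 on the day 0 arrays, between 0.22 and 0.28 on day 4, between -0.30 and -0.12 on day 8 and between -0.21 and -0.15 on day 15. The arrays of days 0 and 4 did not overlap each other or the later days, while those of days 8 and 15 overlapped. The same median over all tested probes stayed between -0.05 and 0.05 on every array.

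**Figure D1:**
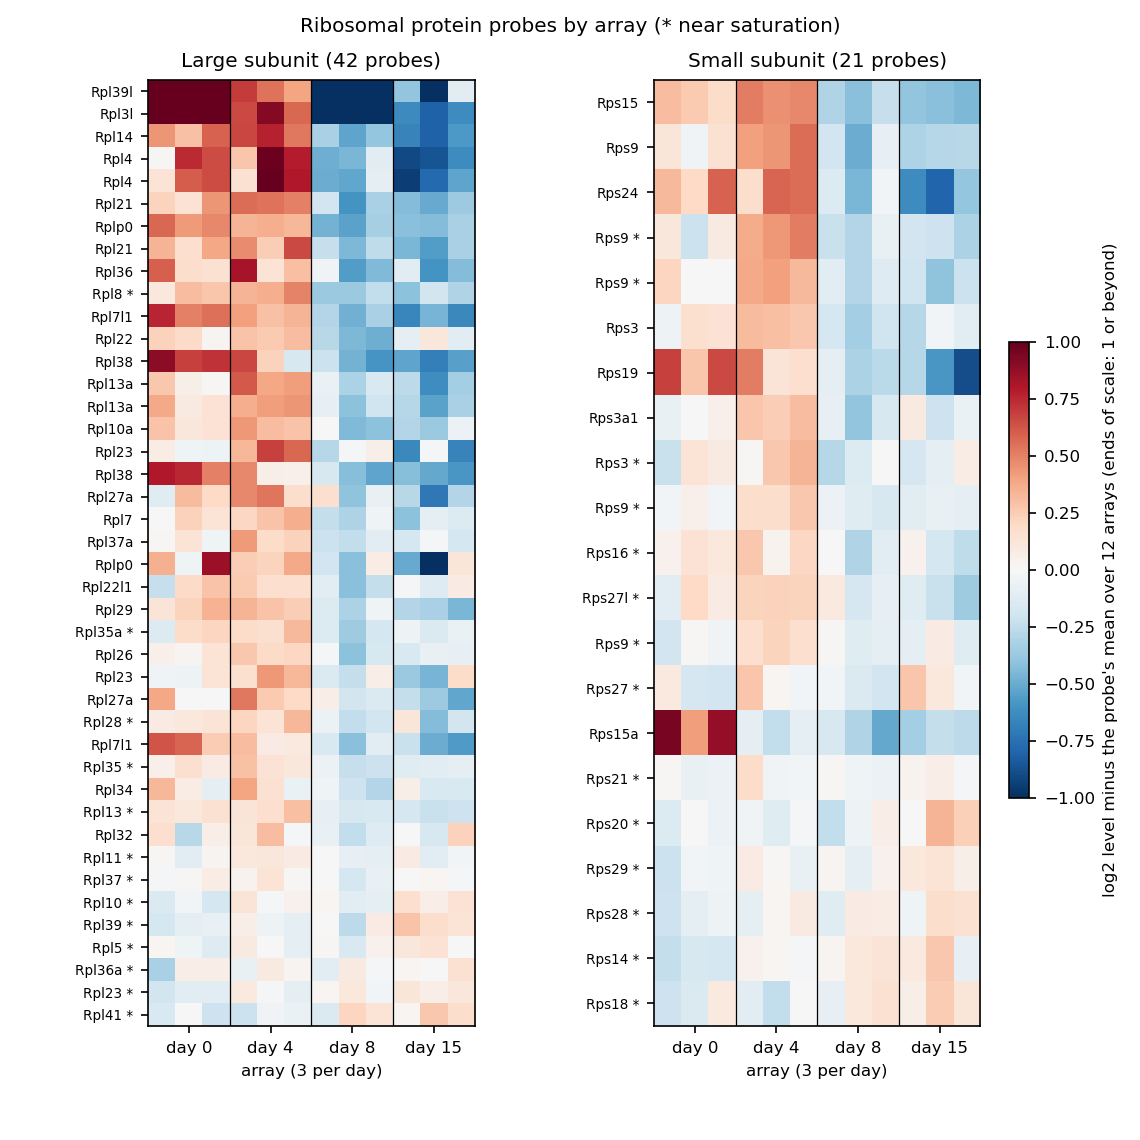
Level of each tested ribosomal protein probe on each array as a log2 difference from that probe's mean over 12 arrays, for 42 large subunit probes (left) and 21 small subunit probes (right), sorted by the change from day 4 to day 8; an asterisk marks a probe that reached 50% of the brightest intensity on any array. Most rows turn from red on days 0 and 4 to blue on days 8 and 15, and the rows at the bottom, nearly all with an asterisk, stay pale.

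Many members were among the brightest probes of the array. The files hold no saturation flag. A probe was called near saturation if its scanner intensity reached 50% of the highest intensity on the same array on any array. That highest intensity lay between 33961 and 42454. The term marks relative brightness, and saturation itself was not tested. By this definition 27 member probes (39.7% of 68) were near saturation, against 115 of all 24613 probes (0.467%), and 10 of the 27 were so on all 12 arrays. The small subunit held 14 of its 21 tested probes there and the large subunit 13 of 42. At the limit, Rps27 reached 51.9% and lay inside, and a probe of Rps3 reached 49.2% and lay outside. A probe of Rpl37, at 100%, was the brightest probe of an array.

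Between day 4 and day 8, 45 of the 63 member probes, for 33 of the 49 genes, were lower on day 8 and 0 were higher. Over all tested probes 25.9% were lower and 25.8% higher (51.7% either way). The median log2 change was -0.45 over the members and -0.02 over all tested probes. Of the 36 members not near saturation 33 were lower, with a median of -0.62, and of the 27 near saturation 12 were lower, with a median of -0.16. Of all 115 probes near saturation 29.6% were lower, with a median of -0.08. The 0 rises were 1 rise with quantile normalization without background correction and remained 0 with neqc and with median scaling, where 45 and 39 members were lower. Over all tested probes 3525 were lower with neqc and 2656 with median scaling. With the replicate number in the fit as a block, Rpl41, near saturation on all 12 arrays, was called higher by 0.18 ± 0.07 (adjusted p = 0.030).

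**Figure D2:**
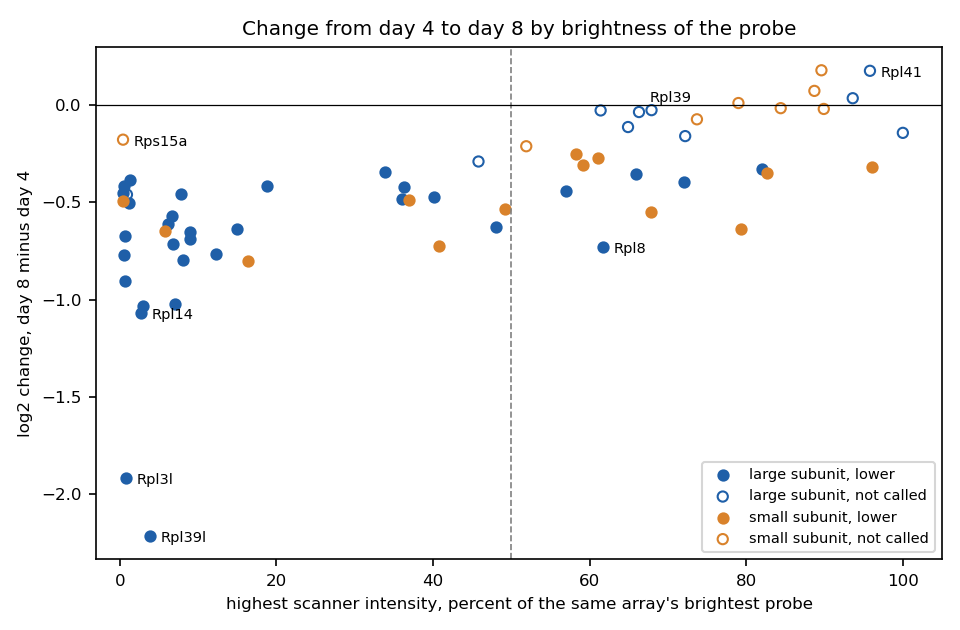
Log2 change from day 4 to day 8 of each tested ribosomal protein probe (vertical axis) against its highest scanner intensity as a percent of the brightest probe of the same array (horizontal axis); filled points passed the limma test as lower, open points did not, and the dashed line is the 50% limit. Left of the line 33 of 36 probes are filled, right of it 12 of 27.

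After the paralogs described further on, the 4 largest falls were in large subunit probes, those of Rpl14, Rpl4 and Rpl21, followed by Rps15 of the small subunit. Rpl14, a protein on the solvent side of the large subunit, had levels of 9.84, 9.94 and 9.70 on day 4 and 8.85, 8.64 and 8.78 on day 8. Every day 8 array lay below every day 4 array, and the fall was 1.07 ± 0.12 on the log2 scale (2.09-fold, adjusted p = 7.01e-07). Rpl4, which lines the peptide exit tunnel, has 2 probes. One read 10.35, 11.20 and 10.996 on day 4 and 9.70, 9.68 and 10.10 on day 8, a fall of 1.02 ± 0.20 (2.03-fold, adjusted p = 2.86e-04). The other fell by 1.03 ± 0.19, and neither overlapped between the days. Both also stayed low on day 15, at 9.25, 9.42 and 9.66 and at 8.15, 8.19 and 8.43.

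Rpl21 was measured by 2 dim probes, and the one with the larger change read 8.13, 8.11 and 8.07 on day 4 and 7.38, 6.97 and 7.24 on day 8. Its fall of 0.90 ± 0.12 had an adjusted p of 6.08e-06. Rplp0, the base of the stalk that recruits elongation factors, read 11.08, 11.10 and 11.07 on day 4 and 10.26, 10.20 and 10.41 on day 8 (ILMN_2744356). That is a fall of 0.79 ± 0.10 (1.73-fold, adjusted p = 2.33e-06) with no overlap. Its second, dimmer probe changed by -0.46 ± 0.24 and did not pass (adjusted p = 0.128), with a spread on day 15 from 6.69 to 7.91. The other stalk proteins, Rplp1 and Rplp2, were not analysed here.

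Rpl38, whose loss in mice alters the patterning of the axial skeleton, fell at each step up to day 8. Its brighter probe read 11.06, 11.01 and 10.76 on day 0, then 10.74, 10.32 and 10.31 on day 4, then 10.10, 9.83 and 9.73 on day 8, and 9.83, 9.75 and 9.68 on day 15. Days 0, 4 and 8 did not overlap, and days 8 and 15 did. The 2 probes fell by 0.57 ± 0.13 and 0.67 ± 0.16 between days 4 and 8 (adjusted p = 0.00175 and 0.00209). Rpl10a, on the stalk opposite to that of Rplp0, read 13.63, 13.46 and 13.49 on day 0 and 13.78, 13.65 and 13.63 on day 4, which was not called, and then 13.35, 12.90 and 12.93 on day 8. The fall between days 4 and 8 was 0.63 ± 0.12 (adjusted p = 2.07e-04).

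Small subunit proteins fell as well, and Rps15, whose tail reaches towards the decoding site, fell most among them. It read 12.32, 12.27 and 12.29 on day 4 and 11.51, 11.39 and 11.58 on day 8, with no overlap, and reached at most 16.4% of an array's highest intensity. The fall was 0.80 ± 0.088 (1.74-fold, adjusted p = 7.89e-07). Rps9, at the mRNA entry side of the subunit, has 5 probes, and all 5 were lower on day 8 than on day 4. The probe not near saturation (ILMN_2643092) read 13.40, 13.44 and 13.55 on day 4 and 12.80, 12.50 and 12.91 on day 8, a fall of 0.73 ± 0.10 (adjusted p = 1.21e-05). The 4 probes near saturation fell by 0.25, 0.32, 0.55 and 0.64. The smallest of these (ILMN_1214918) lost its call without day 4 replicate 2 or day 8 replicate 2 or 3, at adjusted p-values of 0.0559 to 0.0645. Rps19, a small subunit protein mutated in human Diamond-Blackfan anemia, was dim: it read 7.39, 7.002 and 7.04 on day 4 and 6.79, 6.56 and 6.61 on day 8. Its fall of 0.49 ± 0.15 (adjusted p = 0.0125) was no longer called when day 4 replicate 1 (adjusted p = 0.0701) or day 8 replicate 2 (adjusted p = 0.0509) was left out.

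The 18 members not called between days 4 and 8 were 15 probes near saturation and the probes of Rps15a, Rpl32 and the dimmer one of Rplp0. Rpl5 and Rpl11, which bind the 5S rRNA and, outside the ribosome, the p53 inhibitor Mdm2, were among those near saturation. Rpl5 read 14.02, 13.92 and 13.83 on day 4 and 13.94, 13.78 and 13.98 on day 8, and the days overlapped. Rpl11 read 14.26, 14.26 and 14.23 on day 4 and 14.15, 14.07 and 14.06 on day 8. All its day 8 arrays were lower, by 0.16 ± 0.08 on average, but the change did not pass (adjusted p = 0.0904). Not every bright probe was flat: Rpl8, a protein near the peptidyl transferase centre, reached the limit on 6 arrays and read 13.96, 13.98 and 14.12 on day 4 and 13.25, 13.25 and 13.38 on day 8. It fell by 0.73 ± 0.09 (adjusted p = 2.49e-06).

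**Figure D3:**
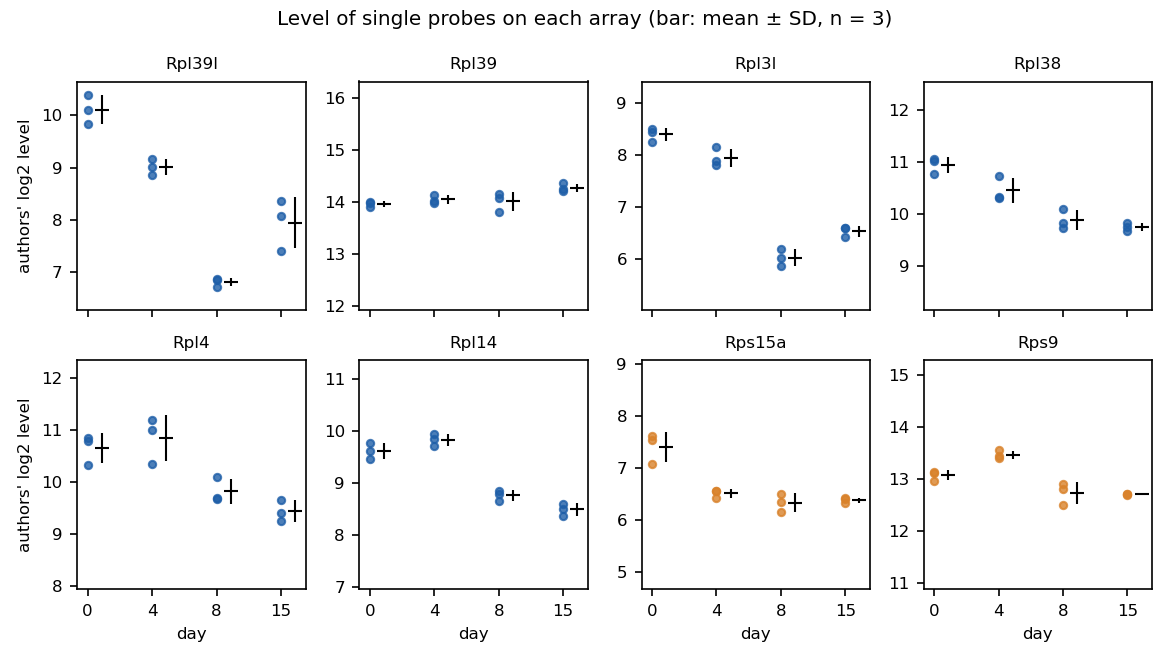
Authors' log2 level of single probes on each of 12 arrays by day (points), with the mean ± SD of 3 arrays (cross), for 6 large subunit probes (blue) and 2 small subunit probes (orange); every panel spans the same number of log2 units. Rpl39l and Rpl3l drop to day 8 and rise to day 15, Rpl39 stays near 14, Rps15a drops between days 0 and 4, and the others are lower on days 8 and 15.

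The largest changes of all members were in paralogs, Rpl39l and Rpl3l. The members hold 5 such genes with 6 tested probes, the others being Rpl22l1, Rpl7l1 and Rps27l. All 6 probes were lower on day 8 than on day 4, with a median of -0.58, while the median over the other 57 members was -0.44. Rpl39l, a paralog of Rpl39 known in mice for its high level in the male germ line, read 10.11, 9.83 and 10.39 on day 0, then 9.17, 9.01 and 8.86 on day 4, then 6.84, 6.70 and 6.85 on day 8, and 8.07, 7.39 and 8.35 on day 15. No day overlapped another. The steps were -1.10 ± 0.19 to day 4 (adjusted p = 3.59e-04), -2.21 ± 0.19 to day 8 (4.64-fold, adjusted p = 3.93e-08) and 1.14 ± 0.19 to day 15 (2.202-fold, adjusted p = 2.99e-04). These values are not background-subtracted, and with neqc the step to day 8 was -3.002.

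Rpl39, the exit tunnel protein after which Rpl39l is named, read 13.91, 13.99 and 14.01 on day 0, then 14.15, 14.03 and 13.99 on day 4, then 14.09, 13.82 and 14.16 on day 8, and 14.37, 14.26 and 14.22 on day 15. The first 3 days overlapped and day 15 lay above them. Its probe was near saturation on 11 of 12 arrays, so its changes and those of Rpl39l are not on the same part of the scanner's range.

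Rpl3l, the paralog of Rpl3 known from heart and skeletal muscle, had a course like that of Rpl39l. It read 8.503, 8.26 and 8.45 on day 0 and 7.89, 8.15 and 7.81 on day 4, and was detected on 0 of 3 arrays on day 8. Against the detection floor of the day 8 arrays it was at least 3.04-fold lower than on day 4 (adjusted p of the fit = 9.08e-10). On day 15 it was detected on all 3 arrays, at 6.60, 6.42 and 6.60, at least 1.14-fold above day 8 (adjusted p = 0.00635). Rpl3 itself was not analysed here. With neqc the step to day 8 was -2.84 for Rpl3l, a fitted value that counts undetected signal and gives no bound.

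Between days 4 and 8 the other paralogs changed by amounts closer to those of the genes they are named after than Rpl39l did. Rpl22 and Rpl22l1, which in mice can take its place, fell by 0.69 ± 0.10 and 0.46 ± 0.13 between days 4 and 8 (adjusted p = 2.13e-05 and 0.0064). Rpl22 read 11.44, 11.42 and 11.47 on day 4, 10.88, 10.71 and 10.67 on day 8 and 11.06, 11.27 and 11.06 on day 15. Rpl22l1 read 11.26, 11.16 and 11.16 on day 4 and 10.88, 10.57 and 10.75 on day 8, and its call was lost with median scaling (adjusted p = 0.128). The 2 probes of Rpl7l1, a Rpl7-like protein, fell by 0.71 ± 0.11 and 0.39 ± 0.13 between days 4 and 8 (adjusted p = 2.44e-05 and 0.0229). The second lost its call without day 4 replicate 1 or day 8 replicate 2 (adjusted p = 0.0948 and 0.120). Rpl7 itself fell by 0.48 ± 0.10 (adjusted p = 8.43e-04). From day 0 to day 15 they were further apart, with falls of 1.20 and 0.91 for Rpl7l1 and 0.34 for Rpl7.

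Rps27l, a paralog of Rps27 and a p53 target gene, read 14.04, 14.05 and 14.04 on day 4 and 13.92, 13.65 and 13.74 on day 8, with no overlap. It fell by 0.27 ± 0.10 (adjusted p = 0.0228), near saturation on 7 arrays, and without day 4 replicate 2 or 3 or day 8 replicate 2 or 3 the adjusted p-value was between 0.0522 and 0.106. Rps27 changed by -0.21 ± 0.11 in the same step and did not pass (adjusted p = 0.110).

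Between day 0 and day 4, 8 members were higher and 5 lower, against 13.2% and 12.6% of all tested probes and 25.8% for both directions together, so the count was not above the background. The median change was 0.14 over the members and -0.04 over all tested probes. With neqc or quantile normalization 4 were higher and 5 lower, and with median scaling 0 were higher and 6 lower, with a median of -0.03. Over all tested probes 1802 were higher and 1524 lower with neqc, 1817 and 1561 with quantile normalization, and 1416 and 1851 with median scaling. The direction of the group as a whole in this step thus depends on the scaling. The higher probes were all 5 of Rps9, by 0.21 to 0.44, and 1 probe each of Rpl23 (0.54 ± 0.16), Rpl13a (0.36 ± 0.12) and Rps3a1 (0.29 ± 0.10). Rps9 read 14.06, 13.74 and 14.04 on day 0 and 14.33, 14.39 and 14.47 on day 4 in the probe with the largest rise (ILMN_2673154, adjusted p = 0.00198), with no overlap.

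The lower probes of this step were those of Rpl39l and Rpl3l, both probes of Rpl38 (by 0.52 and 0.49) and Rps15a. Rps15a, a small subunit protein, read 7.62, 7.09 and 7.55 on day 0 and 6.57, 6.42 and 6.57 on day 4. It fell by 0.90 ± 0.13 (1.86-fold, adjusted p = 6.58e-05) and then read 6.51, 6.36 and 6.16 on day 8, where it was detected on 2 of 3 arrays, and 6.33, 6.43 and 6.41 on day 15. Days 4, 8 and 15 overlapped, close to the detection limit.

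Single arrays decided part of the calls between days 0 and 4. Without day 4 replicate 2 or 3 the count of 13 was 5, and without day 0 replicate 3 it was 8. The calls of Rpl39l, Rps15a and 2 probes of Rps9 (ILMN_2643092 and ILMN_2673154) held without any single array. Rps3a1 lost its call without each of the 6 arrays in turn (adjusted p = 0.0599 to 0.112) and Rpl13a without any except day 0 replicate 1 (0.0515 to 0.133). Rpl23 lost it without day 0 replicate 3 or day 4 replicate 2 or 3 (0.0508 to 0.0812). Rpl38 lost it in both probes without day 4 replicate 2 or 3 and in the dimmer one also without day 0 replicate 1 (0.0637 to 0.150), and Rpl3l without day 4 replicate 3 (0.0557). The other 3 probes of Rps9 lost it without day 0 replicate 3 or day 4 replicate 2, and each also without other arrays of these days (0.05 to 0.128).

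Between day 8 and day 15 the members called depended on whether replicate numbers were paired. Without pairing Rpl39l, Rpl3l and Rpl22 were called, all 3 higher, against 10.7% of all tested probes higher and 8.15% lower (18.8% either way). The median change was 0.02 over the members and -0.04 over all tested probes. Rpl22 rose by 0.37 ± 0.10 (adjusted p = 0.0144 without pairing). Without day 8 replicate 2 or 3 or day 15 replicate 2, also unpaired, its adjusted p-value was 0.0510 to 0.0774. With the replicate number in the fit as a block and no array left out, its adjusted p-value was 0.0039. Without day 15 replicate 1 the count was 5. With median scaling 2 members were higher and 2 lower, where 1229 and 1155 of all tested probes were. Same-numbered arrays of these days deviated together. When the replicate number entered the fit as a block, the same 3 and 11 further probes were called, in all 7 higher and 7 lower, against 13.8% and 12.5% of all tested probes. The further rises were those of Rps20 (0.27 ± 0.07, adjusted p = 0.0114), Rpl39 (0.26 ± 0.08), Rps27 (0.24 ± 0.06) and Rpl10 (0.19 ± 0.07). The further falls were both probes of Rpl4 (0.44 ± 0.13 and 0.38 ± 0.12, adjusted p = 0.0176 and 0.0308), and Rps24, Rpl23 (ILMN_1238227), Rps19, Rpl27a and Rpl13a, by 0.40 to 0.23.

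Day 15 against day 0 shares its arrays with the steps above and gives the sum of them. Of the 63 members 35 were lower and 9 higher, where 35.9% of all tested probes were lower and 29.2% higher (65.1% either way). With the replicate number as a block these 44 were called with 3 more, Rpl34 and Rps16 lower and Rps27 higher. The share of all tested probes under the block is not given for this comparison. Errors and p-values printed for it are from the fit without the block. The median change was -0.27 over the members and -0.10 over all tested probes. The largest falls were those of Rpl39l (2.17 ± 0.19, adjusted p = 2.69e-08) and Rpl3l (1.86 ± 0.12, adjusted p = 6.22e-10). Rpl38 followed with 1.35 ± 0.16 and 1.19 ± 0.13 in its 2 probes, then Rpl4 with 1.27 ± 0.19 and 1.22 ± 0.20, and Rpl7l1 with 1.20 ± 0.11 and 0.91 ± 0.13. Rps19 fell by 1.13 ± 0.15 (adjusted p = 5.56e-06) and was detected on 2 of 3 arrays on day 15. Rpl14 fell by 1.12 ± 0.12, Rps15a by 1.03 ± 0.13, Rplp0 (ILMN_2744356) by 0.89 ± 0.10 and Rpl10a by 0.42 ± 0.12 (adjusted p = 0.00408).

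All 9 probes called higher on day 15 than on day 0 were among the 27 near saturation, of which 7 were lower. Of all 115 tested probes near saturation, these 27 included, 30.4% were higher and 29.6% lower, so the members' share of rises was near the background of bright probes. The 9 were Rpl39 (0.31 ± 0.09, adjusted p = 0.00596), Rps14 (0.29 ± 0.08), Rpl41 (0.28 ± 0.10), Rps20 (0.26 ± 0.09), Rpl10 (0.24 ± 0.08), Rpl23 (0.23 ± 0.07, ILMN_2742807), Rps18 (0.23 ± 0.10), Rps28 (0.21 ± 0.09) and Rps29 (0.19 ± 0.08). Rpl10, which completes the large subunit at a late step of its assembly, read 13.91, 14.03 and 13.88 on day 0 and 14.22, 14.12 and 14.20 on day 15. Rpl41, a very short basic peptide, read 14.50, 14.66 and 14.45 on day 0 and 14.68, 14.93 and 14.83 on day 15. The days did not overlap for these, and of the 9 only Rps18 overlapped.

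Most of the rises lost their call under other scalings. With neqc 2 of the 9 were called, Rpl39 (adjusted p = 0.0167) and Rpl10 (adjusted p = 0.0376), and 37 members were lower. With quantile normalization without background correction the counts were the same, 2 and 37. With median scaling all 63 members had a negative change, 52 were called lower and 0 higher, and the median was -0.62. Over all tested probes 3878 were higher and 4517 lower with median scaling, and 3931 and 4805 with neqc. Without single arrays of day 0 or day 15, 6 of the 9 also lost their call (adjusted p = 0.0502 to 0.178): Rpl41, Rps14, Rps18, Rps20, Rps28 and Rps29. Rps14 lost it without day 15 replicate 2 only. The other 5 lost it without that array and without day 0 replicate 1 as well, and some without day 0 replicate 2 or 3 or day 15 replicate 1 or 3. Rpl7 and Rps27l, which fell by 0.34 ± 0.10 and 0.29 ± 0.10, were not called when single arrays were left out. For Rpl7 this was day 15 replicate 1 (adjusted p = 0.0638). For Rps27l it was day 0 replicate 2 or day 15 replicate 3 (adjusted p = 0.0726 and 0.0702). The fits without single arrays did not use the replicate number as a block. With the block and no array left out, the 6 rises above had limma adjusted p-values of 0.0012 to 0.023. Those of Rpl7 and Rps27l were 0.0012 and 0.0075. Leaving out arrays under the block was not tested.

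The scaling acted on the bright end of the range. On the near-saturation member probes the authors' value minus the plain log2 of the scanner intensity had a median between -0.63 and -0.46 on the day 0 arrays, between -0.55 and -0.36 on day 4, between -0.46 and -0.06 on day 8 and between -0.36 and 0 on day 15. Over all probes the same difference lay between -0.13 and 0.11 on every array. The ranges of neighbouring days overlapped, and how far the rises come from this was not tested beyond the scalings given here.

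**Figure D4:**
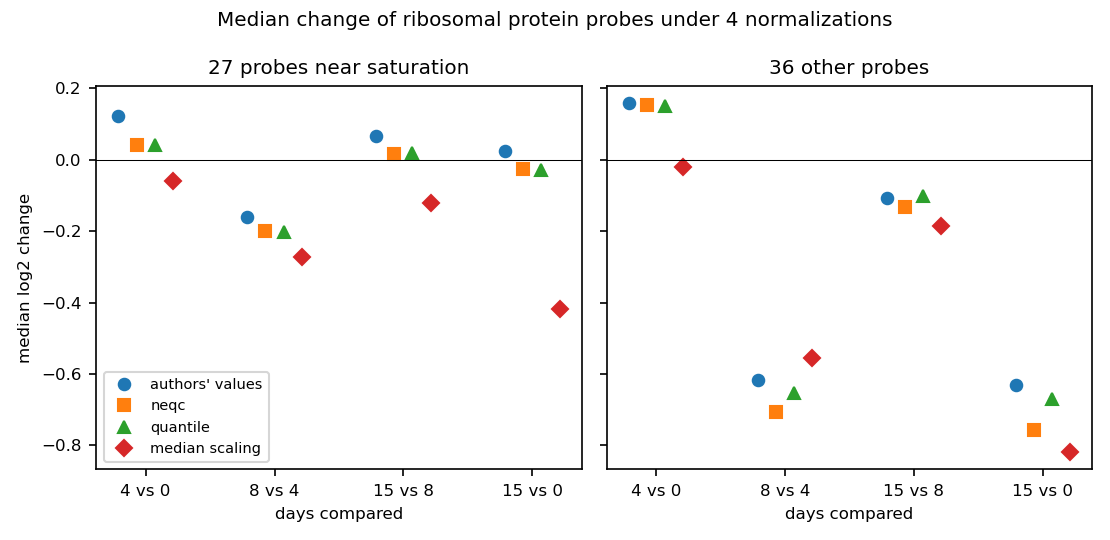
Median log2 change of the ribosomal protein probes near saturation (left, 27 probes) and of the others (right, 36 probes) in each comparison of days, computed from the authors' values and from 3 other normalizations of the scanner intensities. The fall from day 4 to day 8 is present under all 4 on both sides, while the change from day 0 to day 15 in the left panel runs from 0.03 with the authors' values to -0.42 with median scaling.

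Genes with several probes gave a check on single probes. There were 10 such genes with 24 tested probes, and Rpl23 alone had probes called in opposite directions. Rpl23, on the face of the large subunit that meets the small one, read 14.37, 14.44 and 14.45 on day 0 and 14.67, 14.62 and 14.67 on day 15 in the probe near saturation on all 12 arrays, a rise of 0.23 ± 0.07 (adjusted p = 0.0104). A dimmer probe (ILMN_1238227) read 10.39, 10.27 and 10.26 on day 0 and 9.67, 10.29 and 9.64 on day 15. It fell by 0.44 ± 0.16 (adjusted p = 0.0201), with overlap. The call was lost without day 0 replicate 1 or day 15 replicate 1 or 3 (adjusted p = 0.0567 to 0.0987). These fits did not use the replicate number as a block. With the block and no array left out, the adjusted p-value of this dimmer probe was 0.0053. The rise of the bright probe was not called with neqc (adjusted p = 0.619).

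The same gene differed between days 4 and 8. There ILMN_1238227 fell by 0.61 ± 0.16 (adjusted p = 0.00326) and the third probe, ILMN_2685675, by 0.42 ± 0.15 (adjusted p = 0.0267), while the bright probe read 14.65, 14.54 and 14.46 and then 14.58, 14.66 and 14.53. The call of the third probe was lost without day 4 replicate 2 or 3 or day 8 replicate 1 or 2 (adjusted p = 0.0672 to 0.105).

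Large and small subunit members both fell between days 4 and 8, with no test of the difference. Between days 4 and 8, 32 of 42 large subunit probes were lower, with a median of -0.47, and 13 of 21 small subunit probes, with a median of -0.31. Among probes not near saturation the counts were 27 of 29 (median -0.63) and 6 of 7 (median -0.53). The difference of the medians, large minus small, was -0.16, or -0.09 without the probes near saturation. It was -0.30 with neqc, -0.24 with quantile normalization and -0.09 with median scaling. Another measure, the centred median per array, large minus small, had a spread of 0.07 between arrays of a day over all members. Without the probes near saturation its mean was 0.03 on day 4 and -0.02 on day 8.

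From day 0 to day 15 the subunits seemed further apart. The large subunit had 26 probes lower and 4 higher, with a median of -0.43, and the small subunit 9 lower and 5 higher, with a median of -0.09. The difference of -0.34 became 0.08 without the probes near saturation, which make up more of the small subunit, and -0.06 with median scaling. Without day 0 replicate 1 it was -0.21. The 0.08 sets the median of 29 large subunit probes against that of 7 small subunit probes. For the same probes, the centred median per array, large minus small, had a mean of 0.01 on day 0 and -0.11 on day 15. Without probes near saturation the sign thus depends on the measure. No test was made of a score over members, and between days 0 and 4 and days 8 and 15 the difference was -0.05 and -0.01.

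**Figure D5:**
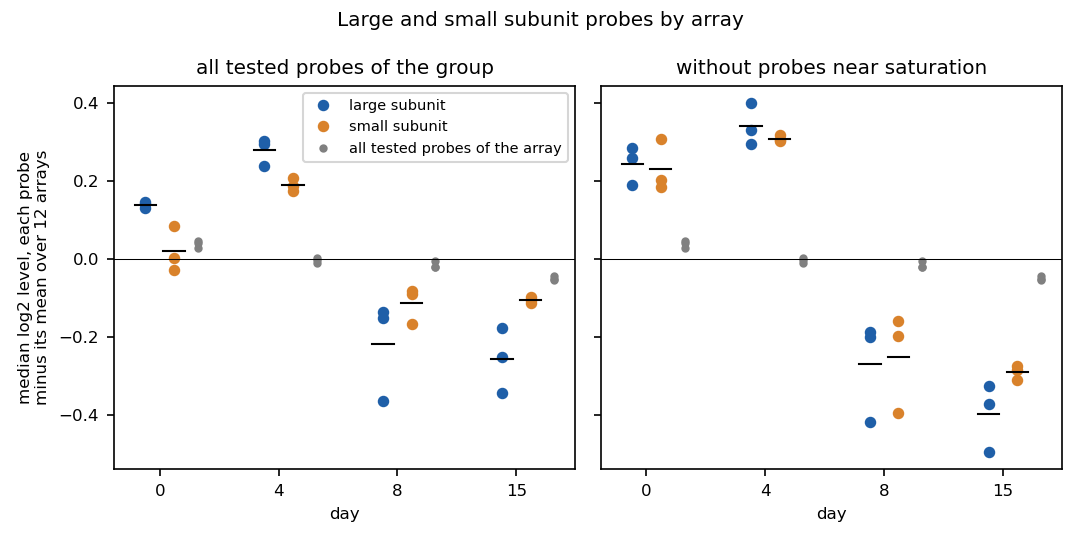
Median log2 level per array, each probe relative to its own mean over 12 arrays, of large subunit members (blue), small subunit members (orange) and all tested probes (grey), with horizontal bars at the mean of the 3 arrays of a day. On the left, with all tested members, the subunits differ most on days 0 and 15; on the right, without probes near saturation, the 2 colours lie closer together on days 0, 4 and 8.

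Members with and without a match to the TOP start at the annotated position were among those that fell. A gene without a match can still have a TOP start, as annotated starts can be some bases off. Of the 10 tested probes of genes with such a match 6 were lower on day 8 than on day 4, and of the 43 probes of other genes with a promoter entry 33 were lower. Over all tested probes 25.9% were lower. Between days 0 and 4, 0 of the 10 were higher and 3 lower, those of Rpl38 and Rps15a, and 8 of the 43 were higher and 2 lower. Over all tested probes 13.2% were higher and 12.6% lower in that step. The difference between the sets with and without a match was not tested. Rpl38 and Rpl14, with runs of 7 and 5 pyrimidines after the C, fell between days 4 and 8. Rps18 and Rps27, with runs of 8 and 6, did not pass, and both were near saturation. Rps15a, with a run of 7, did not pass either (-0.18), and it was dim, at most 0.4% of an array's highest intensity.

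Genes that build the ribosome also fell. In a list of 44 ribosome biogenesis factors, 35 genes were tested with their brightest probe, and 32 were lower on day 8 than on day 4 and 0 higher, with a median of -0.81. Over all tested probes 25.9% were lower and 25.8% higher. Nob1, the nuclease that finishes the 18S rRNA, fell by 1.30 ± 0.19 (adjusted p = 1.71e-05), and Rrp1b and Nhp2 fell by 1.28 ± 0.11 each. From day 0 to day 15 again 32 were lower and 0 higher, where 35.9% and 29.2% of all tested probes were. The median was -1.25, and Rrp1b fell by 2.19 ± 0.11. Between days 0 and 4, 8 were lower and 1 (Sbds, 0.33) higher, where 12.6% and 13.2% of all tested probes were. Between days 8 and 15, 5 of the 35 (14.3%) were lower and 0 higher, where 8.15% and 10.7% of all tested probes were. No test was made of the difference between this list and the ribosomal proteins.

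RNA polymerase I makes the large rRNA precursor. Of its 10 tested genes 9 were lower on day 8 than on day 4 and 0 higher, where 25.9% and 25.8% of all tested probes were. The median was -0.57, and Polr1b, its second largest subunit, fell by 1.30 ± 0.14 (adjusted p = 6.83e-07). Of 23 translation factors and other genes with TOP mRNAs 10 (43.5%) were lower in that step, where 25.9% of all tested probes were, and 0 higher, with a median of -0.32, and Nap1l1, a histone chaperone, fell by 0.62 ± 0.14. From day 0 to day 15, 14 of the 23 (60.9%) were lower and 1 higher (Eif3f, 0.24), where 35.9% and 29.2% of all tested probes were.

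Among 10 tested regulators of ribosome production, 5 were lower on day 8 than on day 4 and 0 higher. Over all tested probes 25.9% were lower and 25.8% higher. Eif4ebp1, a brake on cap-dependent translation under mTOR control, read 13.69, 13.47 and 13.39 on day 4, 12.60, 12.24 and 12.34 on day 8 and 13.41, 13.06 and 13.22 on day 15. It fell by 1.12 ± 0.12 (adjusted p = 8.61e-07) and rose again by 0.84 ± 0.12 (adjusted p = 8.96e-05). Ddit4, an inhibitor of mTOR signalling, was the only one called between days 0 and 4, higher by 0.97 ± 0.19 (adjusted p = 0.0011). Myc, which drives transcription of ribosome genes, was close to background, detected on 1 of 3 arrays on day 4 and 0 of 3 on day 8. The fit called Myc lower on day 8 (adjusted p = 0.0124). Its day 4 levels were 6.389, 6.335 and 6.756, and only replicate 3 lay above the detection floor of its array. No bound on the fall can therefore be given.

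Markers of the cell state changed over the same days. Of 10 pluripotency markers 9 were tested, and all 9 were detected on every day. Their mean level was between 11.4 and 11.6 on the day 0 arrays, 10.9 and 11.03 on day 4, 8.20 and 8.38 on day 8, and 9.20 and 9.28 on day 15. By this mean the label of embryonic stem cells describes days 0 and 4 better than the later days. Day 4 already differed from day 0 in the marker lists. There 5 of the 9 pluripotency markers were lower and 0 higher. Of 10 endoderm markers 5 were higher, Ttr by 4.10, and of 9 mesenchyme markers 6, with 0 lower in either list. Of 5 neural markers 2 were lower and 0 higher. Over all tested probes 13.2% were higher and 12.6% lower. Between days 4 and 8, 8 of the 9 pluripotency markers were lower, where 25.9% of all tested probes were, and Klf4 went the other way. Klf4 was lower by 2.25 on day 4 than on day 0, higher by 2.47 on day 8 than on day 4, and higher by 0.33 on day 15 than on day 0. Of 10 endoderm markers 6 were detected on all 3 arrays of day 0 and 10 on day 8, and their mean level rose from 7.19 to 7.28 on day 0 to 10.2 to 10.3 on day 8. Between days 8 and 15, 5 of the 10 were lower and 1 higher, where 8.15% and 10.7% of all tested probes were. Of 9 tested fibroblast and mesenchyme markers 4 were detected on all arrays of day 0, with 3 on none, and 9 on day 15, at mean levels of 7.01 to 7.13 and 8.63 to 8.85. Of 5 tested neural markers 2 were detected on all arrays of days 0 to 8 and 5 on day 15. On day 15 against day 0, 29.2% of all tested probes were higher and 35.9% lower. In that comparison 8 of the mesenchyme markers were higher and Thy1 lower by 0.45, and 4 of the neural markers were higher and Stmn2 lower by 0.91. The part of these changes in the levels of ribosomal protein mRNAs was not tested.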

How the data were processed

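RNA of W9.5 cells was amplified, biotin-labelled and hybridised to Illumina arrays, 12 in all, 3 for each of 4 days, per the labels. The deposited scanner table holds an intensity and a detection p-value for each probe and array, and is neither background-subtracted nor normalized. The authors' deposited value table holds log2 intensities, with a normalization not given in the sources used here. These log2 values rise with the scanner intensity within every array, equal its plain log2 on 1 array, and have array medians between 6.27 and 6.30. They are not background-subtracted, so changes of dim probes are understated. Gene symbols come from the platform table given with the files (1 gene for 20984 probes, several for 1 and none for 3628).

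The authors' log2 values were the main setting, because the members' levels were to be taken from them. Probes detected (p-value under 0.05) on at least 3 arrays were kept (13421). With limma 3.58.1 in R 4.3.3, a mean per day was fitted to the 12 arrays together (8 residual degrees of freedom), with moderated variances following the mean, and p-values were adjusted by Benjamini-Hochberg over all 13421 probes. The fit was tested on simulated data. Alternatives were neqc (offset 16), quantile normalization without background correction, median scaling, other filters and probe rules, no variance trend, the replicate number as a block, only the days compared, no paralogs, no probes near saturation, and each array left out. A day on which a probe was detected on 0 arrays gives a bound against the lowest intensity detected on each array. Deviations of same-numbered arrays from their day's mean correlated at 0.35 to 0.48 in the 3 pairs of days 8 and 15 and at 0.45 to 0.53 in those of days 0 and 15, and were taken as paired there. In days 0 and 4 (-0.06 to 0.49) and days 4 and 8 (0.07 to 0.39) they were not. Errors and p-values in the text are from the fit without the block unless the block is named, also for days 0 and 15. The pairing rests on these correlations and no label states it. Precision is limited by having 3 arrays per day.

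The members and lists were chosen with earlier results of these data known. The text names paralogs and the genes they are named after, the 6 largest called rises and falls of each comparison without overlap, genes with probes called in opposite directions, probes near saturation, members with a role of their own, and the largest calls of each related list. Rpl22, Rps9, Rpl8 and Rps15a were followed into further comparisons, and Rps15 and the probes called under the block were named, after their values were seen.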

Additional observations from a re-analysis of the deposited data

How the results depend on the processing

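The count of members called between days 4 and 8 (45, all lower) was between 32 and 50 under the alternatives, in either direction. The lowest value was at 1 probe per gene, where fewer probes were tested, and the F-test count (51) was between 34 and 56. Their median of -0.45 was -0.54 with neqc and -0.62 without probes near saturation, and -0.47 to -0.37 without single arrays. The median from day 0 to day 4 (0.14) was -0.0339 with median scaling and 0.10 to 0.15 without single arrays; from day 8 to day 15 (0.02) it was -0.14 with median scaling, -0.11 without probes near saturation and -0.01 to 0.03 without single arrays; from day 0 to day 15 (-0.27) it was -0.62, -0.63, -0.19 with 1 probe per gene, and -0.31 to -0.26. The count between days 0 and 4 (13) was 6 with median scaling, 6 with 1 probe per gene and 5 to 11 without single arrays; that between days 8 and 15 (3) was 1 without paralogs and 3 to 5 without single arrays; that between days 0 and 15 (44) was 28 without probes near saturation, 35 to 40 without single arrays and 36 with no variance trend.

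Large minus small subunit from day 0 to day 15 (-0.34) was -0.26 with quantile normalization, -0.0557 with median scaling, -0.25 with no filter, -0.21 with 1 probe per gene, 0.0777 without probes near saturation, -0.26 without paralogs and -0.39 to -0.21 without single arrays. From day 4 to day 8 (-0.16) it was -0.30 with neqc, -0.24 with quantile normalization, -0.0874 with median scaling and -0.22 to -0.15 without single arrays. From day 8 to day 15 (-0.01) it was -0.10 without probes near saturation and -0.06 to 0.01 without single arrays.

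With median scaling the changes from day 0 to day 15 of the 9 bright probes turned sign: Rpl10 -0.22, Rpl23 -0.27, Rpl39 -0.15, Rpl41 -0.23, Rps14 -0.21, Rps18 -0.27, Rps20 -0.24, Rps28 -0.27 and Rps29 -0.30, the last 2 of them called lower. Over 73 probe and comparison pairs named in the text and 1172 recomputed values, 1031 kept direction and side of the threshold, 128 lost the call, 4 gained it and these 9 turned. The cause was not tested.

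With the replicate number as a block (replicate block) 21 members (14 higher and 7 lower) were called between days 0 and 4, 14 (7 and 7) between days 8 and 15 and 47 between days 0 and 15. No call was lost in the 4 comparisons. Between days 4 and 8 Rpl11, Rpl32, Rps27 and the second probe of Rplp0 were also called lower, and Rpl41 was called higher. The share of all tested probes called under the block is given only for days 8 and 15, so the other block counts have no background beside them. Deviations of same-numbered arrays correlated between -0.06 and 0.53 (median 0.35 over 18 pairs) and others between -0.42 and 0.35 (median -0.20 over 36 pairs), and 10 of 12 arrays correlated best with an array of their own number. The numbers met the criterion for pairing in the comparisons of day 15 and not in the other 2. Signal over background limits the dim members: Rps15a and Rps19 lie near the detection limit on later days.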

Other observations

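The 2 probes of Rpl4 deviated together between arrays of a day. On day 0 replicate 1 they read 9.06 and 10.33, below replicates 2 and 3 (9.80 and 9.71, and 10.80 and 10.85), and on day 4 replicate 1 they read 9.33 and 10.35, below replicates 2 and 3 (10.04 and 9.84, and 11.20 and 10.996). The 2 probes of Rpl38 both had their highest day 4 value on replicate 1, at 7.798 and 10.74.

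Probes of one gene lay far apart on the array's range. The tested probe of Rpl37 stood between 14.4 and 14.7, while the other 2 stood between 5.85 and 6.42 and were detected on 0 and 2 arrays. Both probes of Rpsa, the laminin receptor and a core small subunit protein, stood between 5.70 and 6.45, and that of Rpl17 between 5.59 and 5.80.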
